A study of Homo sapiens with 6 samples.

Results

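The fibroblast growth factor (FGF) genes described here are the ligand genes FGF5, FGF1 and FGF2, the receptor genes FGFR1, FGFR2, FGFR3 and FGFR4, and FGFRL1, which encodes a receptor-like protein without a kinase domain. They are 8 of 58733 gene entries in a table of RNA sequencing counts and were picked by name, each name matching 1 entry. The set was built around FGF5 after its difference between the conditions had been seen, so every comparison of these 8 genes between conditions is a description and carries no test.

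The cells were MDA-MB-231, an established line from a human breast cancer of the triple-negative kind, with mesenchymal features. One group of 3 libraries (a, b and c) was from cells kept for 72 h in DMSO, the solvent. The other group of 3 was from cells kept for 72 h in 2 µM Azeliragon, a small molecule that blocks RAGE (receptor for advanced glycation end products), a surface receptor of the immunoglobulin family. Both groups were grown in the same serum-containing medium, and all libraries came from 1 cell line. No source used here says whether the libraries of a group were separate cultures, so p-values rest on the variation among these libraries alone, which could be purely technical.

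FGF ligands are secreted proteins that bind receptor tyrosine kinases at the cell surface together with heparan sulfate, a sulfated sugar chain of the cell coat. The bound receptor recruits the adaptor FRS2 and switches on the RAS-MAPK cascade, which in turn induces its own inhibitors, such as the Sprouty proteins and the dual-specificity phosphatases. In breast epithelium, FGF signalling takes part in duct branching, and amplified FGF receptor genes occur in a part of breast cancers. FGF5 is best known as the signal that ends the growth phase of the hair cycle.

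Library totals ran from 41455979 to 44313584 counts. Levels are given as CPM (counts per 1000000). By library totals, before the scaling for library composition described below, 1 read was worth 0.0226 to 0.0241 CPM. The mesenchymal markers VIM, CD44, AXL, CAV1 and MSN summed to between 5780 and 5900 CPM in the DMSO libraries and between 6020 and 6110 CPM in the Azeliragon libraries. The single markers did not go 1 way, since mean VIM (2040 and 1830 CPM) and CAV1 (659 and 577 CPM) were lower with Azeliragon, while AXL (1400 and 1680 CPM), MSN (1140 and 1360 CPM) and CD44 (587 and 607 CPM) were higher. Their part in the results was not tested. Epithelial and luminal markers summed to between 138 and 151 CPM per library. Of these, the cadherin gene CDH1 had 1 read over all 6 libraries together and the progesterone receptor gene PGR had 0. ESR1 was near 0, with means of 0.0386 CPM in DMSO and 0.259 CPM with Azeliragon. The other members were expressed, with means in DMSO and with Azeliragon of 109 and 110 CPM for ERBB2, 27.6 and 23.2 CPM for GATA3, and 8.97 and 8.14 CPM for EPCAM. Summed markers of leukocytes, endothelium and fibroblasts each stayed at or below 1.55 CPM in every library. Among them CD3E and PDGFRA had 0 reads, and PTPRC had reads only in DMSO b (3). CD14 had means of 1.36 CPM in DMSO and 0.903 CPM with Azeliragon, and LUM 0.64 and 0.763 CPM. The endothelial genes were all detected, PECAM1 at 0.326 and 0.178 CPM and VWF at 0.107 and 0.425 CPM. One control library, DMSO a, differed from its group. On the first principal component of all tested genes (37.6% of the variance) its score was -0.23, that of DMSO b 30.1 and that of DMSO c 33.7, while scores with Azeliragon ran from -23.0 to -19.0. For the ligand and receptor genes that could be fitted and for the gene lists, values without DMSO a are given beside those from all libraries.

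The gene FGF5 occupies positions 80266599 to 80336680 of chromosome 4, plus strand (build GRCh38, GENCODE release 29), and has 5 annotated transcripts. FGF5-201 has 3 exons and 804 coding bases, and FGF5-203 skips exon 2 and has 369 coding bases. The shorter product, known as FGF5S, counteracts full-length FGF5 in the hair cycle. The 2 sequences are printed because the deposited counts are per gene and pool both forms. Capitals mark exon 2 (104 bases, chr4:80274909-80275012) in FGF5-201, and in FGF5-203 the stop codon that is read when exon 1 joins exon 3 directly. The lower-case letters on the left are the last 30 bases of exon 1, and those on the right are the start of exon 3 (GENCODE release 29 transcripts, 5′ to 3′).
FGF5-201: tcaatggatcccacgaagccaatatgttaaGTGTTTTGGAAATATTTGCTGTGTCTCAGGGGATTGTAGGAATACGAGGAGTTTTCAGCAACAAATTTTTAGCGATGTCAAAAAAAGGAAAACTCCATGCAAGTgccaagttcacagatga
FGF5-203: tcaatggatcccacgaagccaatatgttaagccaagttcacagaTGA
The counts do not tell which of these forms was present in either condition.

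The stretch of 250 bases before the first FGF5 start in RefSeq is shown because FGF5 is the gene of this set that differed most between the conditions. It spans chr4:80266338-80266587 on the plus strand (GRCh38.p14), and capitals mark the 1 match to a motif searched for.
FGF5 upstream: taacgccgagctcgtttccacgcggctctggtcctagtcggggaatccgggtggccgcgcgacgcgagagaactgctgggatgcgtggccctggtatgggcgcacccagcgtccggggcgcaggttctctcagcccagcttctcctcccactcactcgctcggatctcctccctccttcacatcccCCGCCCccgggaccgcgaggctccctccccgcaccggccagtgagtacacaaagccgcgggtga
This stretch is 68.8% G and C, where the median of all 34943 RefSeq upstream stretches of that length is 58.0%. The match is a GC box (GGGCGG) on the minus strand, 64 bases before the start, and 42.5% of all stretches hold one on either strand. No match was found on either strand to TATAAA (in 10.8% of all stretches), CCAAT (32.0%), the AP-1 letters TGANTCA (6.59%), the SNAIL-type E-box CAGGTG (17.5%) or the TEAD letters GGAATG (11.9%). With a single match, no motif overlaps another in this stretch.

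FGF5 RNA was low in DMSO and a little over 2 times as high with Azeliragon. The DMSO libraries a, b and c held 237, 183 and 171 FGF5 reads, and the Azeliragon libraries a, b and c held 435, 481 and 447. As CPM scaled by TMM, a correction for library composition, these are 5.25, 4.24 and 3.96 in DMSO and 10.1, 11.0 and 10.8 with Azeliragon. Every Azeliragon library was above every DMSO library, and DMSO a was the highest of its group. The means were 4.48 ± 0.68 CPM in DMSO and 10.6 ± 0.47 CPM with Azeliragon (SD, n = 3 each), and the fitted difference was 2.37-fold (log2 fold change 1.25, SE 0.13). In bulk RNA, fewer cells carrying an RNA and less RNA per cell cannot be told apart. Without DMSO a the log2 fold change was 1.38 (SE 0.13), and over all 14 other settings it lay between 1.16 and 1.38. The values are drawn with those of the other 7 genes in the plot of CPM by library.

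**Figure D1:**
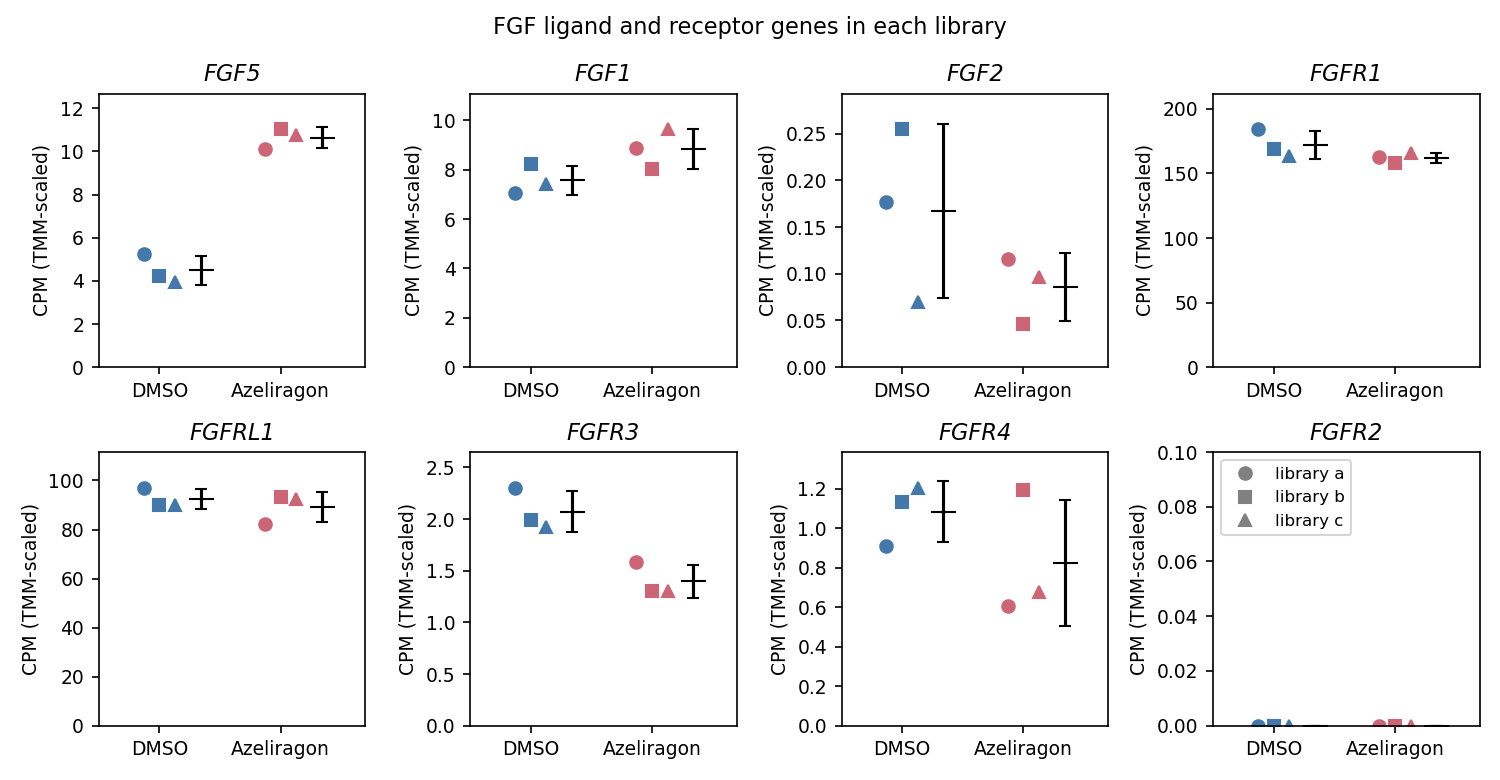
CPM (TMM-scaled) of each of the 8 FGF ligand and receptor genes in the 6 libraries, DMSO in blue and Azeliragon in red, with circles, squares and triangles for libraries a, b and c and a bar for the mean and SD of each group (n = 3). FGF5 lies between 3.96 and 5.25 CPM in DMSO and between 10.1 and 11.0 CPM with Azeliragon, whereas FGFR1 and FGFRL1 overlap between groups and FGFR2 is at 0 throughout.

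Among the 10187 tested genes that averaged 5 CPM or more, 2 had a larger log2 fold change than FGF5. Among all 16081 tested genes, 73 did. FGF5 met the cut of 5 CPM only through the Azeliragon libraries (mean 10.6 CPM, against 4.48 CPM in DMSO). Both ranks use the difference for which FGF5 was chosen, so they describe it and add no evidence. The spread of FGF5 between libraries was 15.1% of the mean in DMSO, where counting alone gives 7.12%, and 4.41% with Azeliragon, where counting gives 4.69%. The Azeliragon libraries thus varied about as much as read counting does, and the DMSO libraries varied more.

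FGF1, which encodes acidic FGF, a ligand that binds all 4 FGF receptors, was the other ligand gene with a clear level. Its place is chromosome 5, minus strand, 142592178 to 142698070. Its levels were 7.07, 8.22 and 7.42 CPM in DMSO a, b and c and 8.89, 8.02 and 9.65 CPM in Azeliragon a, b and c. The groups overlapped, since Azeliragon b was below DMSO b. The mean went from 7.57 ± 0.59 to 8.85 ± 0.81 CPM (SD, n = 3 each; log2 fold change 0.23, SE 0.12), and the log2 fold change was 0.18 without DMSO a. A noncoding gene, SPRY4-AS1, lies across FGF1 on the opposite strand but shares no exon base with it.

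FGF2, which encodes basic FGF, was near the limit of detection. Its place is chromosome 4, plus strand, 122826708 to 122898236. It had 8, 11 and 3 reads in DMSO a, b and c and 5, 2 and 4 in Azeliragon a, b and c, too few to enter the fit. Its exons share 804 bases with those of NUDT6, a gene on the opposite strand that held 285 to 387 reads per library. The strand setting of the counting is not given in the sources used here, so even these few reads cannot be given to FGF2 with certainty.

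The make-up of the ligand RNA differed between the conditions, as the bars of ligand shares show. Of the summed level per length of 18 secreted FGF ligand genes, FGF5 made up 30.9%, 25.1% and 25.5% in DMSO a, b and c and 41.5%, 42.9% and 44.0% in Azeliragon a, b and c. FGF1 made up 59.3 ± 5.0% (DMSO) and 46.0 ± 5.3% (Azeliragon; SD, n = 3 each). For every 100 reads of FGF1 there were 59.8 ± 12.6 reads of FGF5 in DMSO and 121 ± 14 with Azeliragon. These shares follow from the FGF5 difference that chose the set and add no evidence to it.

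**Figure D2:**
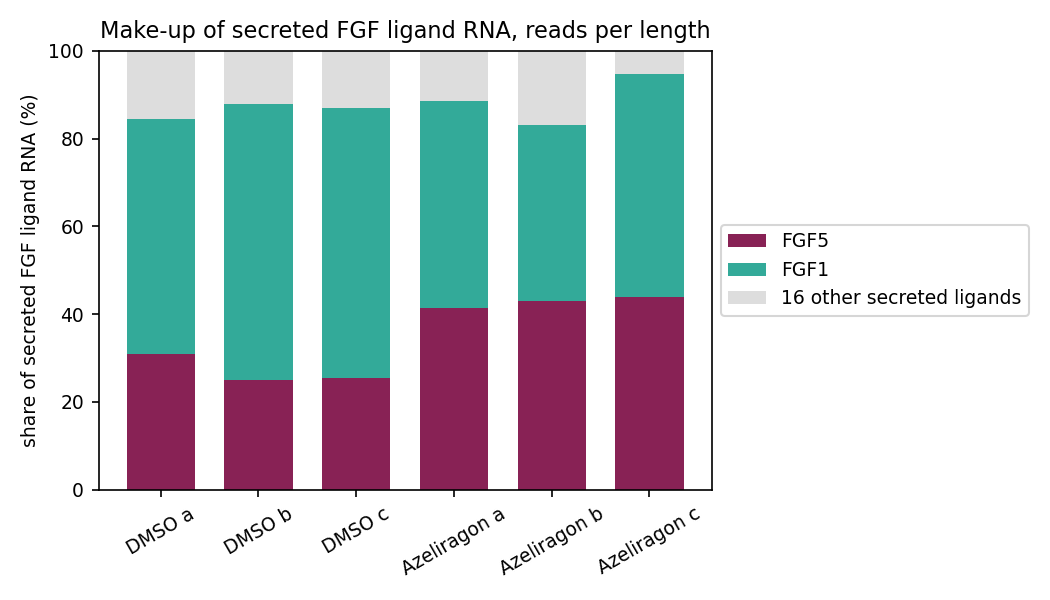
Share of secreted FGF ligand RNA (percent of summed reads per base of the longest transcript) for FGF5, FGF1 and the 16 other secreted ligand genes together, in each of the 6 libraries. FGF5 has a mean share of 27.2% in DMSO and 42.8% with Azeliragon, and the 16 others take the remainder above FGF1.

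Among the receptor genes, FGFR1 and FGFRL1 carried nearly all of the RNA. FGFR1, which encodes the FGF receptor most often found in mesenchymal cells, stood at 184, 169 and 164 CPM in DMSO a, b and c and at 162, 158 and 166 CPM in Azeliragon a, b and c. The groups overlapped, and DMSO a was the highest of the 6. The log2 fold change was -0.09 (SE 0.06), and -0.04 without DMSO a. FGFR1 shares 138 exon bases with LETM2 and 156 with the antisense gene AC087623.1, both on the opposite strand. LETM2 held only 236 to 330 reads per library where FGFR1 held 6868 to 8322.

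FGFRL1 (chromosome 4, plus strand, 1009936 to 1026897) encodes a protein that binds FGF ligands but cannot signal through a kinase. Its levels were 97.1, 89.9 and 90.0 CPM in DMSO a, b and c and 82.1, 93.3 and 92.3 CPM in Azeliragon a, b and c. Azeliragon a was the lowest library and DMSO a the highest, with the other 4 close together. The log2 fold change was -0.05 (SE 0.07), and -0.01 without DMSO a. Its sign turned without Azeliragon a (0.01) and with the trends on length and GC content removed (0.01), so no direction can be given.

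FGFR3 lies near FGFRL1 on chromosome 4, at 1793293 to 1808872, and encodes a receptor kinase that is mutated in some bladder cancers. It was low in all libraries and lower with Azeliragon. It had 104, 86 and 83 reads in DMSO a, b and c and 68, 57 and 54 in Azeliragon a, b and c. These were 2.30, 1.99 and 1.92 CPM against 1.582, 1.307 and 1.302 CPM, and the groups did not overlap. In the fit, FGFR3 with Azeliragon was 1.48-fold lower (log2 fold change -0.57, SE 0.21). The log2 fold change was -0.49 without DMSO a and lay between -0.67 and -0.49 over all other settings. The spread between libraries was no larger than read counting gives, at 9.77% against 10.5% in DMSO and 11.5% against 12.9% with Azeliragon.

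FGFR4 (chromosome 5, plus strand, 177086886 to 177098144) encodes the receptor that serves FGF19 in liver. It had 41, 49 and 52 reads in DMSO a, b and c and 26, 52 and 28 in Azeliragon a, b and c. Azeliragon b was as high as the DMSO libraries and the other 2 were lower, so the groups overlapped. The log2 fold change was -0.39 (SE 0.33), between -0.76 without Azeliragon b and -0.21 without Azeliragon a, and -0.50 without DMSO a.

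FGFR2 (chromosome 10, minus strand, 121478334 to 121598458) encodes the receptor whose epithelial splice form serves ligands such as FGF7 and FGF10. It had 0 reads in each of the 6 libraries, which allows up to 3 reads per library for counting error only. By library totals, without TMM scaling, 3 reads are 0.0677 to 0.0724 CPM. ESRP1, a splicing factor of epithelial cells that directs the epithelial receptor forms, had mean levels of 0.47 ± 0.08 CPM (DMSO) and 0.33 ± 0.33 CPM (Azeliragon; SD, n = 3 each), looked up after the levels were seen. Its sister gene ESRP2 was more abundant and higher with Azeliragon, at 3.74, 4.03 and 2.78 CPM in DMSO a, b and c and 5.17, 4.65 and 4.15 CPM in Azeliragon a, b and c. The ESRP2 groups did not overlap, but it did not pass (log2 fold change 0.40, SE 0.17; adjusted p = 0.205, edgeR), and 149 of its exon bases are shared with NFATC3 on the opposite strand. Counts per gene cannot tell the splice forms of FGFR1 or FGFR3 apart.

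Of the 8 genes, 6 entered the fit across all genes, and 1 of them, FGF5, passed the threshold used for all genes (p under 0.05 after Benjamini-Hochberg adjustment, quasi-likelihood test of edgeR). Of all 16081 genes tested, 6.27% passed, 2.75% higher and 3.53% lower with Azeliragon. The groups did not overlap for FGF5 and FGFR3, as for 25.3% of all tested genes (12.1% higher with Azeliragon). FGF5 was chosen for its difference in this comparison, so its passing is no test of that difference. Nothing is read from these counts.

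Levels of different genes can be compared only per length, as RPKM (CPM divided by the length in kilobases), which is drawn in the plot of level per length. With the longest transcript as the length, DMSO libraries held 27.7 ± 1.7 RPKM of FGFR1 and 25.4 ± 1.1 of FGFRL1 (SD, n = 3 each). Far below them came FGF1 at 1.86 ± 0.15, FGF5 at 0.86 ± 0.13, FGFR3 at 0.47 ± 0.05, FGFR4 at 0.35 ± 0.05 and FGF2 at 0.025 ± 0.014 RPKM. In DMSO the ranges of FGFR1 and FGFRL1 overlapped, and no other neighbours in this order did. The order of the leading pair depends on the length used. With all exons of the gene as the length, 13842 bases for FGFR1, FGFR1 was at 12.4 ± 0.78 RPKM and FGFRL1 at 22.3 ± 0.99 RPKM in DMSO (SD, n = 3 each).

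With Azeliragon, FGF5 was at 2.03 ± 0.09 RPKM and FGF1 at 2.18 ± 0.20 RPKM (longest transcript, SD, n = 3 each), and their ranges overlapped. With all exons as the length they were at 1.77 ± 0.08 and 1.68 ± 0.15 RPKM, which also overlapped. The pair that was separate in DMSO, with FGF1 above FGF5, was therefore not separate with Azeliragon. FGFR3, at 0.31 ± 0.04 RPKM, and FGFR4, at 0.26 ± 0.10 RPKM, also overlapped with Azeliragon.

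**Figure D3:**
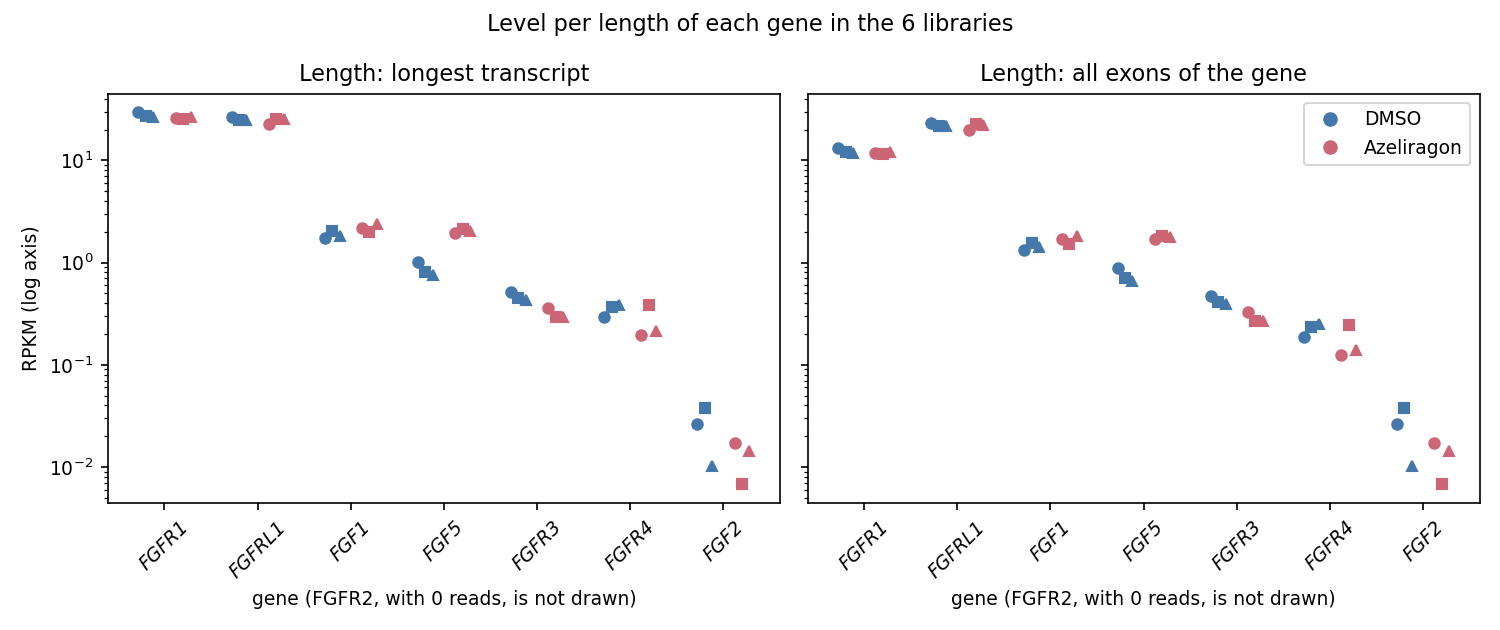
RPKM on a log axis for 7 of the 8 genes in the 6 libraries, DMSO in blue and Azeliragon in red, with the longest transcript (left) or all exons of the gene (right) as the length; circles, squares and triangles are libraries a, b and c. FGFR1 and FGFRL1 lie at 11.4 RPKM or more in both panels, above all others. Their ranges overlap in the left panel, where FGFR1 has the higher group means, and FGFRL1 is higher in every library in the right panel. FGF5 reaches the level of FGF1 only in the Azeliragon libraries.

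The remaining ligand genes of the family were close to silent. Of 15 other secreted ligand genes, 5 had 0 reads in all libraries and 1, FGF22, had enough reads to be tested. FGF22 had 25, 11 and 15 reads in DMSO a, b and c and 28, 32 and 7 in Azeliragon a, b and c. Its log2 fold change was 0.42 (SE 0.53; adjusted p = 0.709, edgeR), and its groups overlapped widely. FGF8, named after its values were seen, had 1, 0 and 1 reads in DMSO and 2, 11 and 3 with Azeliragon, too few for the fit. Of the 4 intracellular FGF homologous factors, which do not signal through FGF receptors, FGF11 alone was tested (log2 fold change 0.05, SE 0.57; adjusted p = 0.976, edgeR). FGF11 shares exon bases with 3 other genes, so its 6 to 20 reads per library are uncertain.

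For the lists that follow, the shares over all tested genes to read each count against are 6.27% past the threshold by edgeR, 9.19% by DESeq2, 6.39% by limma-voom, 20.4% at an unadjusted edgeR p under 0.05, and 23.7% past the edgeR threshold without DMSO a. Levels of the surface partners of FGF ligands ranged widely. Of 21 genes for co-receptors and FGF-binding proteins, 7 had too few reads to test, 3 of them with 0 reads. Of the 14 tested, 0 passed by edgeR, by DESeq2 or by limma-voom, and 3 (21.4%) had an unadjusted edgeR p under 0.05. The most abundant were the heparan sulfate carriers SDC4 and SDC1. For SDC4 the mean was 240 ± 9.7 CPM in DMSO and 259 ± 9.4 CPM with Azeliragon, and for SDC1 it was 208 ± 4.9 and 211 ± 4.9 CPM (SD, n = 3 each). KL, the co-receptor for the hormone-like FGF23 and named after its values were seen, had 0 reads. Without DMSO a, 2 of the 14 (14.3%) rose and none fell, beside 23.7% of all genes called.

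Of 14 genes that build or edit heparan sulfate, 11 were tested. Of these 11, 1 rose and 10 did not pass by edgeR, while DESeq2 called 2 and limma-voom 1. The gene that rose was EXT1, a polymerase that extends the heparan sulfate chain. It was at 245, 235 and 246 CPM in DMSO a, b and c and at 322, 327 and 334 CPM in Azeliragon a, b and c, with no overlap. This is a 1.35-fold rise (log2 fold change 0.44, SE 0.06; adjusted p = 0.000752, edgeR), called under all 14 other settings with an adjusted p of at most 0.0132. Its partner EXT2 did not pass (112 ± 4.8 and 109 ± 3.6 CPM, SD, n = 3 each; log2 fold change -0.04). NDST1, which starts the sulfation of the chain, went from 317 ± 71 to 415 ± 15 CPM (SD, n = 3 each) without passing (adjusted p = 0.0818, edgeR). At an unadjusted edgeR p under 0.05 there were 3 of the 11 (27.3%). Without DMSO a, 4 of the 11 (36.4%) rose, beside 23.7% of all genes called.

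All 22 genes for receptor adaptors and the RAS-MAPK relay were tested and 0 passed by edgeR, with 3 (13.6%) at an unadjusted p under 0.05. DESeq2 called 1 and limma-voom 0. The 2 most abundant were MAP2K2, a kinase of the relay, and SHC1, an adaptor. The MAP2K2 mean was 446 ± 62 CPM for DMSO and 449 ± 39 CPM for Azeliragon, and that of SHC1 was 234 ± 17 and 238 ± 2.2 CPM (SD, n = 3 each). Without DMSO a, 6 rose and 2 fell, which is 36.4% of the list beside 23.7% of all genes. Of 6 splicing regulators of FGF receptors, 0 passed by edgeR, with 2 (33.3%, PTBP1 and ESRP2) at an unadjusted p under 0.05, while DESeq2 called 1 and limma-voom 0. PTBP1, a repressor of exon use, went from 969 ± 65 to 1127 ± 12 CPM (SD, n = 3 each; adjusted p = 0.0671, edgeR), and HNRNPA1, an abundant splicing repressor, had a log2 fold change of -0.04 without passing. HNRNPA1 has many processed pseudogenes that could share its reads. Without DMSO a, 2 of the 6 rose and 1 fell.

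Of 21 feedback inhibitors and transcriptional targets of FGF-MAPK signalling, 20 were tested, 2 rose, 2 fell and 16 did not pass. The 4 called are 20% of the list, beside 6.27% of all genes, and 9 of the 20 (45%) had an unadjusted edgeR p under 0.05, beside 20.4% of all genes. DESeq2 and limma-voom called 5 each. Without DMSO a, 3 rose and 7 fell, which is 50% of the list beside 23.7% of all genes. The list was put together with results of these data known, so these shares are a description. The genes called include a pair of phosphatases from 1 family, of which DUSP5 rose and DUSP4 fell. DUSP5, a nuclear phosphatase of the kinase ERK, was at 97.2, 104 and 120 CPM in DMSO a, b and c and at 185, 210 and 209 CPM in Azeliragon a, b and c. It rose 1.88-fold with no overlap (log2 fold change 0.91, SE 0.08; adjusted p = 7e-05, edgeR). DUSP4, a phosphatase of the same family, was at 222, 196 and 196 CPM in DMSO and at 154, 153 and 159 CPM with Azeliragon. It fell 1.31-fold, again with no overlap (log2 fold change -0.39, SE 0.07; adjusted p = 0.00412, edgeR).

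EGR1, an immediate-early transcription factor induced by ERK, was at 252, 251 and 261 CPM in DMSO a, b and c and at 169, 193 and 196 CPM in Azeliragon a, b and c. It fell 1.37-fold with no overlap (log2 fold change -0.45, SE 0.07; adjusted p = 0.00197, edgeR). CCND1, which encodes cyclin D1, rose 1.22-fold. Its mean was 736 ± 37 CPM for DMSO and 895 ± 24 CPM for Azeliragon (SD, n = 3 each; log2 fold change 0.28, SE 0.06; adjusted p = 0.0157, edgeR). CCND1 did not pass when 1 library was left out, be it DMSO b (edgeR adjusted p = 0.115), Azeliragon a (0.0602), Azeliragon b (0.115) or Azeliragon c (0.120). CCND1 also shares 497 exon bases with LTO1 on the opposite strand, so its count is uncertain. The values of all 5 called pathway genes are drawn by library. The calls of DUSP5, DUSP4 and EGR1 held under all 14 other settings, with adjusted p up to 0.00159, 0.0401 and 0.0215.

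**Figure D4:**
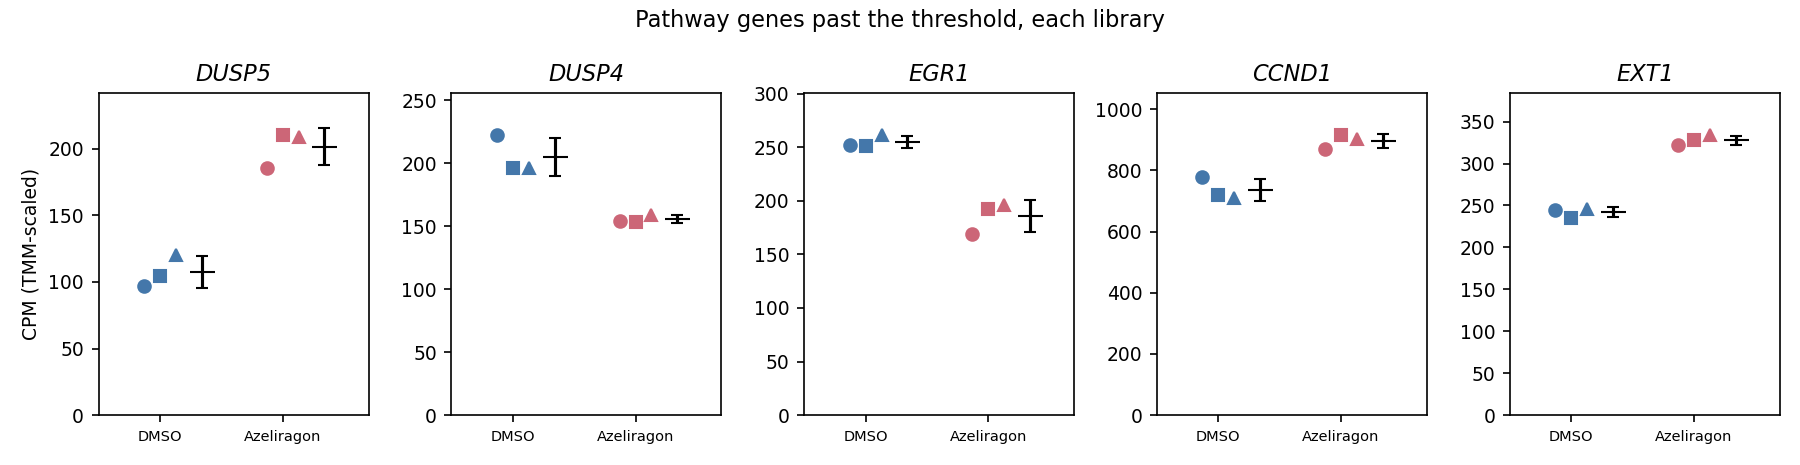
CPM (TMM-scaled) of the 5 pathway genes past the threshold in the 6 libraries, with circles, squares and triangles for libraries a, b and c and a bar for the mean and SD of each group (n = 3). DUSP5, CCND1 and EXT1 are higher in every Azeliragon library than in any DMSO library, and DUSP4 and EGR1 are lower.

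The 16 genes of this list that did not pass had log2 fold changes between -0.50 and 0.25, and 5 of them had an unadjusted edgeR p under 0.05. These 5 were FOS, IL17RD, DUSP6, IER3 and SPRED2. FOS, an immediate-early transcription factor, was at 32.6, 31.9 and 24.7 CPM in DMSO a, b and c and at 17.2, 21.1 and 24.8 CPM in Azeliragon a, b and c. Its groups just overlapped, between DMSO c and Azeliragon c, and its log2 fold change was -0.50 (SE 0.14; adjusted p = 0.0521, edgeR). Groups did not overlap for IL17RD, an inhibitor of FGF signalling (log2 fold change -0.22; adjusted p = 0.135, edgeR), nor for the ERK phosphatase gene DUSP6 (-0.17; 0.114). They did not overlap for the inhibitor gene SPRED2 either, which was higher with Azeliragon (0.25; adjusted p = 0.138, edgeR). The same held for IER3 (-0.18; adjusted p = 0.203, edgeR). It also held for SPRED3 (0.15; 0.318) and FOSL1 (0.10; 0.351), both higher with Azeliragon. Groups did not overlap for 25.3% of all tested genes. The tested Sprouty genes SPRY1, SPRY2 and SPRY4 had log2 fold changes of -0.21, -0.03 and 0.03. For SPRY1 the groups overlapped (SE 0.12; adjusted p = 0.36, edgeR). The ETS factors ETV1, ETV4 and ETV5 had values of -0.07, -0.13 and 0.00. Averaged over all 6 libraries, the most abundant genes of the list that did not pass were PHLDA1, at 742 ± 27 and 708 ± 7.9 CPM, and IER3, at 637 ± 57 and 561 ± 39 CPM (SD, n = 3 each). Except for PHLDA1 and IER3, the genes named among these 16 were chosen after their values were seen. Genes on the opposite strand share exon bases with DUSP6, IER3, PHLDA1, ETV4, SHC1 and NDST1, whose counts are to that extent uncertain. On the same strand, SHC1 shares 335 exon bases with PYGO2, ETV5 shares 164 with DGKG and PTBP1 shares 62 with MIR4745. The same uncertainty holds for these counts.

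Over the 7 lists, 75 of 103 genes were tested, 3 rose, 2 fell and 70 did not pass. This is 6.67% of the tested genes, beside 6.27% of all 16081. The median log2 fold change was 0.02 over the 75 and 0.00 over all tested genes. Without DMSO a, 17 of the 75 rose and 10 fell, which is 36.0% of them, where 23.7% of 16508 genes passed in the whole table. With all 6 libraries the share past the adjusted edgeR threshold among these pathway genes was near that among all genes, and without DMSO a it was above it. At an unadjusted edgeR p under 0.05, with all 6 libraries, it was 26.7%, beside 20.4% of all genes. DESeq2 called 9 of the pathway genes and limma-voom 6, beside 9.19% and 6.39% of all genes. The log2 fold changes of all 75 are in the plot of pathway genes by list.

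**Figure D5:**
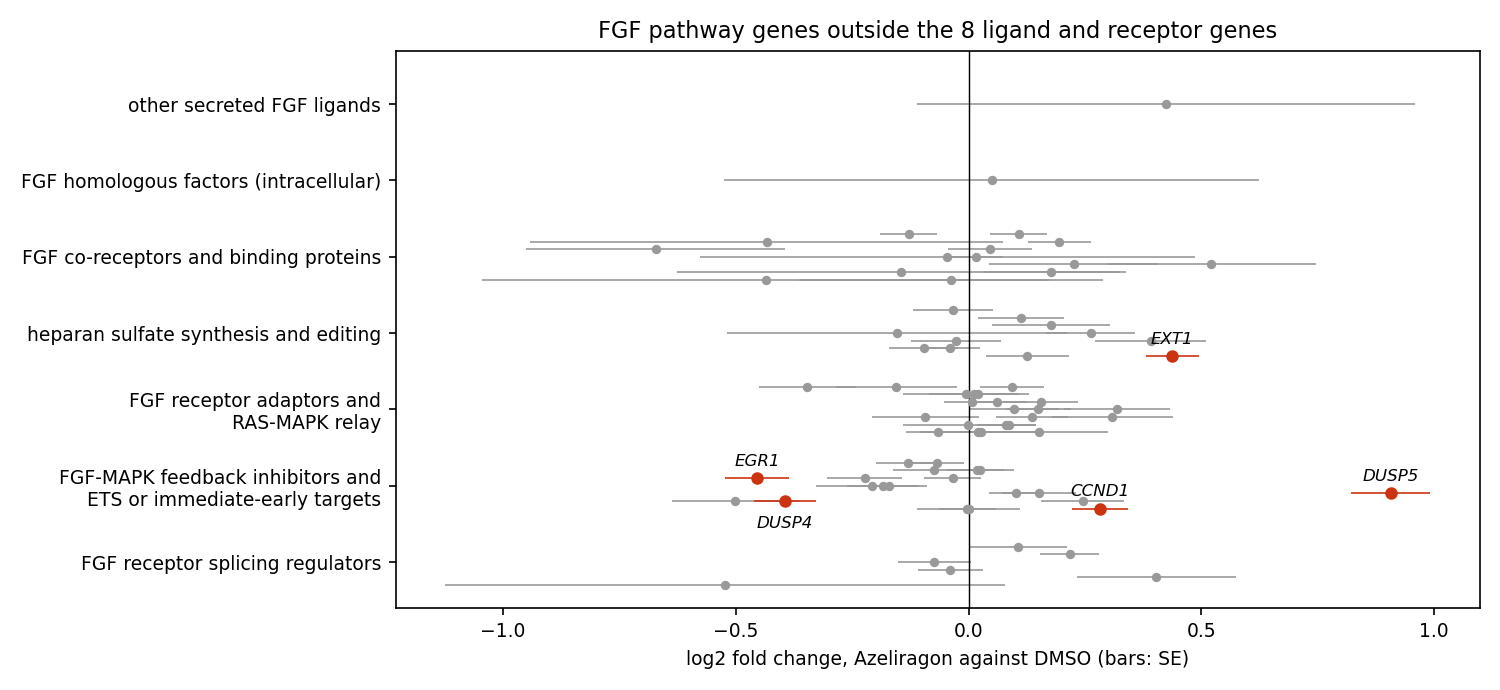
Log2 fold change (Azeliragon against DMSO) with its SE for the 75 tested genes of 7 FGF pathway lists, 1 point per gene and 1 row of points per list; red points with names passed the threshold. Most points lie near 0, DUSP5 lies farthest to the right of the called genes at 0.91, and EGR1 farthest to the left of them at -0.45.

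The genes around FGF5 were looked at for differences of the same kind. The nearest tested gene, PRDM8, lies 62270 bases before FGF5 and encodes a histone methyltransferase family member. PRDM8 went from 51.2 to 58.8 CPM on average (log2 fold change 0.20, SE 0.10; adjusted p = 0.278, edgeR). ANTXR2, an anthrax toxin receptor gene 141145 bases before FGF5, had a log2 fold change of 0.03, and PAQR3, at 1327161 bases, one of 0.45 (adjusted p = 0.879 and 0.0974, edgeR). After FGF5 the nearest tested genes were 2008196 bases or more away. Of these 3, HNRNPD (log2 fold change -0.02) and the noncoding AC124016.1 (-0.05) did not pass. The noncoding AC124016.2 fell, with 26, 50 and 45 reads in DMSO a, b and c and 9, 11 and 13 in Azeliragon a, b and c (log2 fold change -1.83, SE 0.41; adjusted p = 0.0207, edgeR). CFAP299 shares 136 exon bases with the transcript FGF5-205 on the same strand. It had 4, 9 and 8 reads in DMSO and 16, 3 and 6 with Azeliragon, far fewer than FGF5.

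The genes whose levels followed FGF5 most closely over the 6 libraries were STAC, SLC38A10, NOLC1, SQSTM1 and ANO10. Their Pearson r with FGF5 (log2 CPM) was 0.9990, 0.9986, 0.9983, 0.9982 and 0.9979, the highest of 9939 genes compared. All points share the 2 conditions and the 6 libraries, and all 5 genes were higher with Azeliragon and, within DMSO, highest in DMSO a, as FGF5 was. SQSTM1, an autophagy receptor gene, was at 379, 342 and 332 CPM in DMSO a, b and c and at 504, 541 and 542 CPM in Azeliragon a, b and c. STAC went from 36.7 to 39.4 CPM in DMSO to 46.2 to 46.7 CPM with Azeliragon. By the same measure r with FGF5 was 0.675 for FGF1, -0.205 for FGFRL1 and -0.467 for FGFR1. The other members, FGFR3 among them, were below the cut of 5 CPM and were not compared. All these r values include the difference for which FGF5 was chosen, so they add no evidence to it.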

How the data were processed

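Polyadenylated RNA from 3 DMSO and 3 Azeliragon libraries was sequenced. The authors deposited raw counts per gene, and per the submitters' processing notes the work used the build GRCh38, featureCounts 1.5.0-p3, STAR 2.6.1d and limma, with no roles stated. The sources used here do not give the strand setting, annotation or handling of multiply matching reads, so overlapping genes can share reads. Of 58735 entries, 2 with date-like names (0 counts) were left out, and 58722 names matched GENCODE 29, the source of coordinates and lengths.

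Genes kept by filterByExpr were scaled by TMM and compared with glmQLFit and glmQLFTest of edgeR 4.0.16 (R 4.3.3), with treatment as the only term and Benjamini-Hochberg adjustment over 16081 genes. Fold changes and SEs are from that fit. Every pair of libraries within a group differed by more than sampling noise (chi-square per degree of freedom at least 4.6). Named pathway genes are up to 4 called and the 2 most abundant uncalled genes of each list, besides the 3 nearest tested genes on each side of FGF5 and the 5 most like it. The members, lists and tests were chosen with earlier results of these data known. The alternatives were RLE factors, library totals, 2 other filters, DESeq2 1.42.0, limma-voom (limma 3.58.1), a replicate block, removed length and GC trends, and each library left out.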

Additional observations from a re-analysis of the deposited data

How the results depend on the processing

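The log2 fold changes of FGF5, FGF1, FGFR1, FGFR3 and FGFR4 kept their sign, and moved by less than 1 SD of the replicates, under each setting that gave a value (14 each, and 13 for FGFR4, which the stricter filter left out); that of FGFRL1 also stayed within 1 SD but changed sign under 2 settings. The SD comes from the same libraries, and leaving 1 library out can hardly move a value by more than that SD. For those settings, staying within 1 SD was therefore nearly fixed in advance and is no check of the result. FGF2 entered only the fit without a filter and is reported by its reads. Counts of called genes moved more. All genes past the threshold were 1009, against 1685 without a filter on low counts and 1690 with length and GC trends removed (55.9% of them higher with Azeliragon, where 43.8% of the 1009 were), and 445 to 3916 with 1 library left out (3916 without DMSO a, 473 without DMSO b, and 445, 500 and 448 without Azeliragon a, b and c). Pathway genes past the threshold were 5, against 12 without the filter, 9 by DESeq2, 11 with length and GC trends removed, and 4 to 27 with 1 library left out, the highest without DMSO a. The cause was not tested. No shared effect of the replicate letter was seen (correlations of same-letter deviations of 0.0266, 0.0224 and -0.0437). These values cannot tell whether the libraries were paired, and the labels do not say. With the replicate block 908 genes and 6 pathway genes passed. Depth limits FGF2, FGFR2, FGFR4 and most other ligands, which had at most 52 reads in any library.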
